A study of Mus musculus with 6 samples.

Results

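The genes described here are the CCN matricellular proteins and the core of the YAP/TAZ pathway that regulates them. They were chosen by name: Cyr61, Ctgf, Nov, Wisp1 and Wisp2 of the CCN family, the target genes Ankrd1 and Amotl2, and Yap1 and Wwtr1, which encode YAP and TAZ. These are 9 of the 46603 genes in the count files, and 9 of 9 were among the 15226 genes with enough counts to be tested. The libraries were made from poly-A RNA of cultures labelled as enteric glia (EGCs), the supporting cells of the gut's nervous system, with 3 in the control and 3 in the LPS group. All 6 came from intestine of C57BL/6J mouse embryos (E14.5), grown as neurospheres with EGF and FGF, then dissociated and cultured on coated plates with serum until confluent. The LPS cultures received lipopolysaccharide, a component of bacterial walls, at 100 ng/ml for 12 h, and the control cultures received no stimulus per the labels. The series text describes no sort for glia, so the cultures may hold other cells of the gut. Every library also held RNA of macrophage, mesenchymal and smooth muscle marker genes, given below, so the levels cannot be assigned to glia alone. The series text does not say whether replicates were separate cultures or litters. The p-values below therefore measure only the spread between these libraries.

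YAP and TAZ are transcriptional coactivators that cannot bind DNA themselves and act through the TEAD factors. The Hippo kinases phosphorylate them and hold them in the cytoplasm, while cell spreading, actin tension and serum are known to release them to the nucleus. Cyr61, Ctgf, Ankrd1 and Amotl2 are widely used readouts of their activity. CCN proteins are secreted into the matrix, where they bind integrins, LRP receptors and heparan sulfate, and they are known for roles in adhesion, fibrosis and wound repair. In Schwann cells, the glia of peripheral nerve, YAP and TAZ are known to be needed for myelination.

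TEAD factors bind DNA at the core GGAATG, which reads CATTCC on the opposite strand. The sequences are shown because they hold this core near an annotated start site of genes whose levels are compared below. The RefSeq promoter table (GRCm38.p6) held 5 of the 9 genes, namely Cyr61, Ankrd1, Amotl2, Yap1 and Wwtr1; Ctgf, Nov, Wisp1 and Wisp2 are named only. In the 250 bases before the start site, the core was found on either strand in 5 of 5. The window of Wisp3, the sixth CCN gene, held 0 cores. The core was present in 12.6% of the 32851 promoter windows of that table, and 1.02% held 2 or more. The windows of the 5 genes held no AP-1 motif (TGANTCA), found in 6.75% of all windows, and no CArG box, the site of SRF, found in 1.47%. A match is a run of letters and not a measured binding site. The sequences below run 5′ to 3′ on the strand of the gene, with the core in capitals.

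The whole 250-base window of Cyr61 lay at chr3:145649986-145650235 on the minus strand, overlapped no annotated exon, and held the core 103 to 98 bases before the start site.
Cyr61: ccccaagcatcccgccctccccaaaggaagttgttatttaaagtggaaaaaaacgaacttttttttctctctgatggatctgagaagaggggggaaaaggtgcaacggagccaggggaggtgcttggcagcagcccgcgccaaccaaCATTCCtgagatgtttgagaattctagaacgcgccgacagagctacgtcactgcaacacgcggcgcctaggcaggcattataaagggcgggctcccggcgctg

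For the other 4 genes a stretch of 30 bases around the core is shown. Ankrd1 held 2 cores, at chr19:36120037-36120066 and chr19:36119950-36119979 on the minus strand, 210 to 205 and 123 to 118 bases before the start site. Its window lay wholly within an exon that GENCODE M21 annotates for Ankrd1. The Amotl2 stretch was chr9:102717727-102717756 on the plus strand, with the core 65 to 60 bases before the start. The Amotl2 window lay inside the gene as GENCODE M21 gives it, with 136 of its 250 bases in an Amotl2 exon. The Yap1 stretch was chr9:8004720-8004749 on the minus strand, with the core 141 to 136 bases before the start, and 17 bases of its window lay in an exon of Gm45494. The Wwtr1 stretch was chr3:57576029-57576058 on the minus strand, and its core lay 170 to 165 or 136 to 131 bases before the 2 start sites of the table. In the window of the former start site, 34 bases lay in a Wwtr1 exon.
Ankrd1, farther core: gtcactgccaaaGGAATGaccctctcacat
Ankrd1, nearer core: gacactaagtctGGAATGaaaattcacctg
Amotl2: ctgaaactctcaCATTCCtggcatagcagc
Yap1: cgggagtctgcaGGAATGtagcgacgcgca
Wwtr1: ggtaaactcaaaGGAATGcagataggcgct

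The libraries held between 18775316 and 23664312 counts, and 3 counts, taken as the detection floor, corresponded to 0.124 to 0.167 CPM (the count relative to the normalized library size). Sox10, a defining gene of enteric glia, was present in every library, at 73.8 to 101 CPM. The astroglial filament gene Gfap was low, at 2.23 to 7.22 CPM. Of the other glial markers, Fabp7 was called higher in LPS and S100b and Cdh19 lower. The summed level of 8 mesenchymal markers, which include 3 collagen genes, was 15603 to 16295 CPM in control and 15124 to 15842 CPM in LPS libraries, and Dcn (log2 fold change 0.90, adjusted p = 0.0118) and Pdgfra (0.50, adjusted p = 0.0114) were called higher. The other 6 had log2 fold changes below 0 and no call, among them Lum (-0.73, adjusted p = 0.0775), and the replicate block called 2 higher and 2 lower. Mesothelial markers (6 genes) summed to 84.1 to 124 CPM in control and 40.3 to 64.2 CPM in LPS, with 2 called lower, and 5 with the replicate block. Endothelial markers (5 genes, 4 tested) summed to 18.4 to 24.2 CPM in control and 14.48 to 21.6 CPM in LPS. Of these, 0 were called, and 2 were called higher with the block. Over all genes, 9.09% were called higher and 6.71% lower, and 15.4% and 14.9% with the block. All values are from bulk RNA, in which fewer cells of a type and less RNA per cell cannot be told apart.

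In the edgeR quasi-likelihood fit of all 6 libraries, with group as the only term, no gene of the set was called at an adjusted p under 0.05. Cyr61, Ctgf, Ankrd1 and Amotl2 had higher means in LPS, Nov and Wisp1 had lower means, and Wisp2, Yap1 and Wwtr1 lay near their control level. Over all 15226 genes, 9.09% were called higher in LPS and 6.71% lower, against 0 of 9 in either direction here. At an unadjusted p under 0.05 the edgeR quasi-likelihood test passed 1 of 9, Nov as lower, against 16.1% of all genes higher and 16.0% lower. A fit blocked on replicate number called Nov lower after adjustment too. DESeq2 called 1 of 9 after adjustment, Nov as lower, with 13.7% of all genes higher and 11.0% lower, and limma-voom called 0 of 9, with 8.21% and 6.05%. The median log2 fold change was 0.07 over the 9 genes and -0.02 over all genes tested. The LPS and control ranges overlapped for 9 of 9, while 19.3% of all genes had every LPS library above every control library and 19.4% had every LPS library below.

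**Figure D1:**
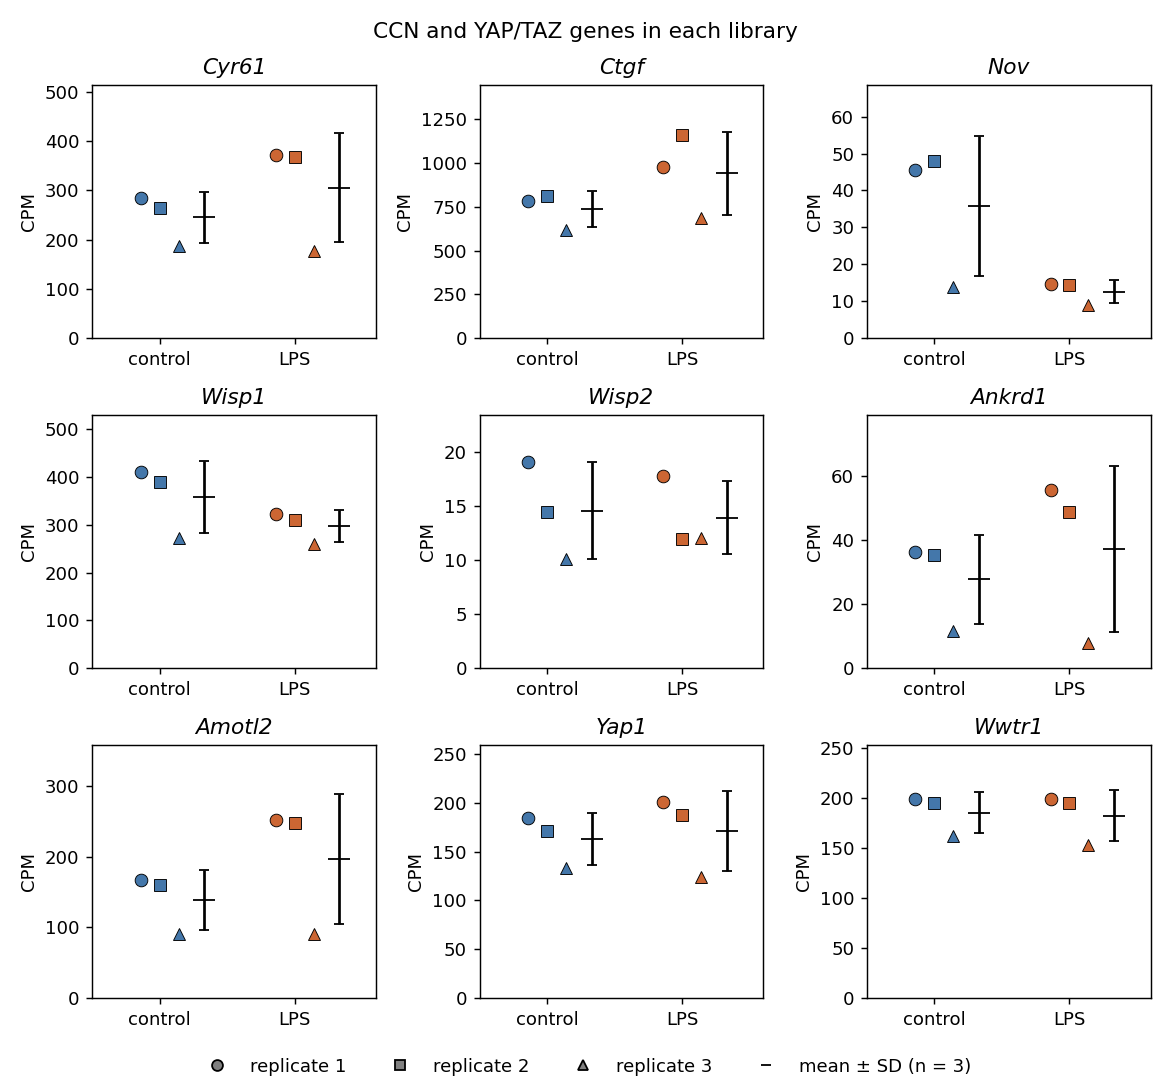
CPM of each of the 9 genes in each library (vertical axis, from 0), with control libraries in blue, LPS libraries in orange, replicate numbers as marker shapes and the mean ± SD beside them (n = 3). The triangles of replicate 3 are the lowest points of both groups in 8 of 9 panels, and the groups overlap in 9 of 9.

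The coactivator genes differed little between the groups. Yap1 (ENSMUSG00000053110, chr9:7931999-8004596) measured 184, 171 and 133 CPM in control replicates 1, 2 and 3 and 201, 188 and 124 CPM in LPS replicates 1, 2 and 3. The mean level of Yap1 was 163 ± 26.6 CPM without and 171 ± 41.1 CPM with LPS (SD over 3 libraries), a log2 fold change of 0.07 (SE 0.22, 95% interval -0.46 to 0.60, adjusted p = 0.859). The direction of Yap1 turned with upper-quartile scaling, with library size alone and without some libraries, so none is given. Wwtr1 (ENSMUSG00000027803, chr3:57455649-57575910) measured 199, 196 and 162 CPM in control and 200, 195 and 153 CPM in LPS. The direction of Wwtr1 turned likewise when single libraries were left out. The means of Wwtr1 were 186 ± 20.4 and 183 ± 25.9 CPM, with a log2 fold change of -0.02 (SE 0.14, interval -0.36 to 0.32, adjusted p = 0.931). Both genes had their lowest library in replicate 3 of each group. The Yap1 exons share 116 bases with the antisense gene Gm20416, which had 0 to 3 counts per library.

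Among the target genes, Cyr61 (ENSMUSG00000028195, chr3:145646976-145649981) encodes CCN1, a ligand of integrins that promotes adhesion. It measured 285, 263 and 186 CPM in control and 372, 367 and 177 CPM in LPS. Replicates 1 and 2 of LPS lay above every control library, and LPS replicate 3 lay below every control library. The means were 245 ± 51.6 and 305 ± 111 CPM, and the log2 fold change was 0.32 (SE 0.32, interval -0.47 to 1.10, adjusted p = 0.545). With single libraries left out it ran from 0.16 without LPS replicate 1 to 0.59 without LPS replicate 3, and was 0.17 without LPS replicate 2 or control replicate 3.

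Ctgf (ENSMUSG00000019997, chr10:24595442-24598683) encodes CCN2, a profibrotic matrix protein. It measured 787, 811 and 620 CPM in control and 977, 1159 and 689 CPM in LPS. It was the only member higher in LPS at each of the 3 replicate numbers, by 0.31, 0.51 and 0.15 on the log2 scale. Its means were 739 ± 104 and 941 ± 237 CPM, with a log2 fold change of 0.35 (SE 0.22, interval -0.18 to 0.88, adjusted p = 0.326). That value was 0.17 without LPS replicate 2 and 0.53 without LPS replicate 3, the extremes over single libraries left out. The exons of Ctgf share 665 bases with the antisense gene Gm15270, which had 69 to 137 counts per library against 13158 to 20791 for Ctgf.

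Ankrd1 (ENSMUSG00000024803, chr19:36111961-36120099) encodes an ankyrin repeat protein found in the nucleus and, in muscle, in the sarcomere. It measured 36.4, 35.3 and 11.7 CPM in control replicates and 55.6, 48.8 and 7.69 CPM in LPS replicates. Replicates 1 and 2 of LPS lay above all control libraries and LPS replicate 3 below all of them. The log2 fold change of 0.43 had an SE of 0.77 (interval -1.46 to 2.31, adjusted p = 0.749), so neither a fall nor a rise of more than 2-fold lay outside the interval. Leaving out any single library moved it, from 0.024 without LPS replicate 1, 0.076 without control replicate 3 and 0.19 without LPS replicate 2 to 0.65 and 0.68 without control replicates 2 and 1 and 0.91 without LPS replicate 3. Amotl2 (ENSMUSG00000032531, chr9:102716672-102733418) encodes an angiomotin family scaffold that binds YAP at cell junctions. It measured 167, 160 and 90.3 CPM in control and 252, 248 and 90.1 CPM in LPS. The values of replicate 3 were nearly equal between the groups, whereas the other LPS libraries lay above all controls. The log2 fold change of Amotl2 was 0.50 (SE 0.44, interval -0.58 to 1.58, adjusted p = 0.490). It was 0.28 without control replicate 3, 0.29 and 0.30 without LPS replicates 1 and 2, and 0.84 without LPS replicate 3.

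Nov showed the largest difference of the set. Nov (ENSMUSG00000037362, chr15:54745702-54754039) encodes CCN3, a CCN protein known to oppose several effects of CCN2. It measured 45.6, 48.0 and 13.97 CPM in control and 14.53, 14.3 and 8.90 CPM in LPS, and was lower in LPS at each replicate number, by -1.65, -1.74 and -0.65 on the log2 scale. The groups overlapped because control replicate 3 lay just below LPS replicates 1 and 2. The means were 35.9 ± 19.0 and 12.6 ± 3.19 CPM, and the log2 fold change was -1.51 (SE 0.49, interval -2.72 to -0.30, adjusted p = 0.0942). With the replicate number as a block the log2 fold change was -1.38 (SE 0.24, interval -2.02 to -0.73), and Nov passed at an adjusted p of 0.0196. It also passed without control replicate 3 (-1.88, adjusted p = 0.0121), where 7.52% of all genes were called higher and 6.66% lower, and with DESeq2 (-1.49, adjusted p = 0.0149). Without any other single library Nov was not called, at -1.23 without control replicate 2 to -1.62 without LPS replicate 1. The adjusted p of Nov ran from 1.25e-05 to 0.262 over the alternatives. With the block, 15.4% of all genes were called higher and 14.9% lower, against 0 and 1 of the 9 genes here.

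Of the remaining CCN genes, Wisp1 (ENSMUSG00000005124, chr15:66891320-66923201) encodes CCN4, a WNT-induced protein of fibroblasts and bone. It measured 412, 391 and 272 CPM in control and 323, 309 and 261 CPM in LPS. It was lower in LPS at each replicate number, by -0.35, -0.34 and -0.06 on the log2 scale. The means of Wisp1 were 358 ± 75.1 and 297 ± 32.6 CPM, with a log2 fold change of -0.27 (SE 0.18, interval -0.71 to 0.17, adjusted p = 0.360). Single libraries left out gave -0.15 without control replicate 1 to -0.42 without control replicate 3. Wisp2 (ENSMUSG00000027656, chr2:163820861-163833146) encodes CCN5, which lacks the C-terminal module of the family. It measured 19.1, 14.48 and 10.1 CPM in control and 17.8, 11.9 and 12.0 CPM in LPS, with a log2 fold change of -0.06 (SE 0.28, interval -0.76 to 0.63, adjusted p = 0.902). The direction of Wisp2 turned when single libraries were left out. Wisp3 had 1 count over all 6 libraries, in LPS replicate 1, and was not tested.

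The libraries numbered 3 stood apart for these genes in both groups. In control, 9 of 9 genes had their lowest value in replicate 3, and in LPS 8 of 9 did; the exception was Wisp2, whose LPS replicate 2 was marginally lower. Thus 8 of 9 genes were lowest in replicate 3 of both groups, against 29.0% of all genes tested. Ankrd1 stood lowest there in LPS: its replicate 3 value was 0.326 of the mean of replicates 1 and 2 in control and 0.147 of it in LPS. Of all genes, 2.98% had a lower ratio than Ankrd1 in control and 0.946% in LPS. For Amotl2 the ratios were 0.553 and 0.361, and 9.21% and 4.32% of genes were lower. Cyr61 stood at 0.681 and 0.480, Ctgf at 0.776 and 0.645, Yap1 at 0.749 and 0.638, and Wwtr1 at 0.822 and 0.774. Nov was the lowest of the 9 in control, at 0.298, and stood at 0.617 in LPS. The median ratio over all genes was 0.997 in control and 1.00 in LPS.

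**Figure D2:**
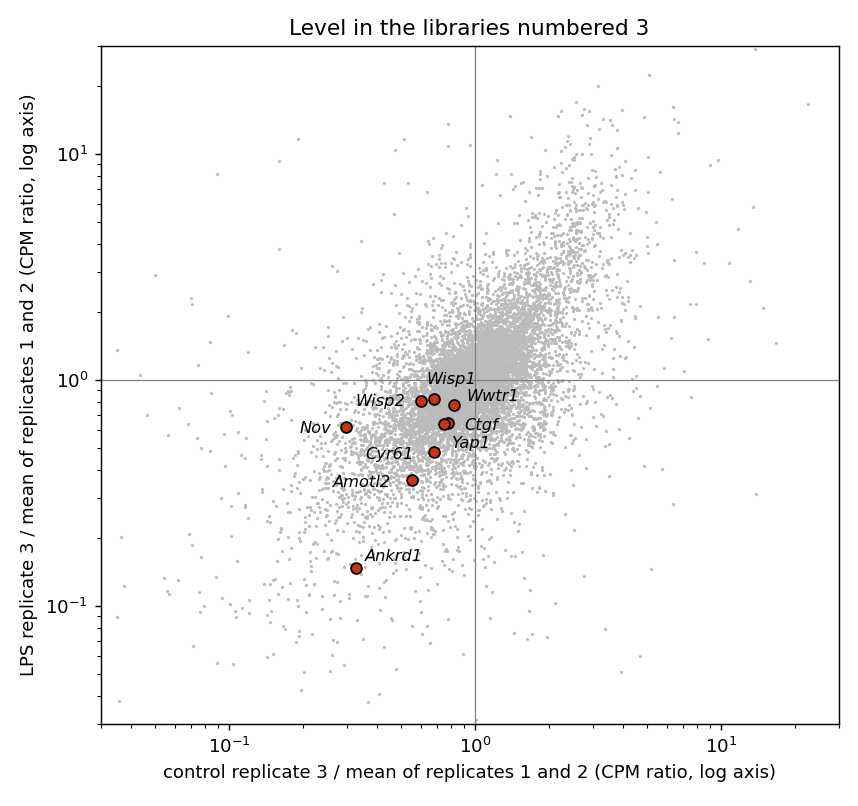
Ratio of the CPM in replicate 3 to the mean of replicates 1 and 2, in control (horizontal, log axis) and in LPS (vertical, log axis), for 15155 genes in grey and the 9 genes of the set in red. A further 71 genes had a ratio of 0, no ratio or a value beyond the axes. The 9 red points lie below 1 on both axes, with Ankrd1 at 0.326 and 0.147.

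Macrophage markers moved the opposite way in the same libraries. The summed level of 12 macrophage markers was 4107, 5321 and 12623 CPM in control replicates 1, 2 and 3 and 4044, 5240 and 20205 CPM in LPS replicates 1, 2 and 3. Each of the 12 was highest in replicate 3 of both groups, and 11 lay above the detection floor in every library. The exception, Cx3cr1, was at the floor in LPS replicate 2 (0.167 CPM). Of the 12, Adgre1 was called higher in LPS and none lower, against 9.09% and 6.71% of all genes. The replicate block called 4 higher and 3 lower, against 15.4% and 14.9% of all genes. Mrc1 had every LPS library below every control library (log2 fold change -3.08, adjusted p = 0.145). The part of these markers in the low values of the set was not tested. The summed mesenchymal markers were highest in replicate 3 of each group by a small margin. They were 16005, 15603 and 16295 CPM in control replicates 1, 2 and 3 and 15124, 15659 and 15842 CPM in LPS replicates. The single markers were mixed: in replicate 3 of both groups Dcn was lowest, while Lum and Thy1 were highest. The summed smooth muscle markers were lowest in replicate 3, at 2716, 2735 and 2484 CPM for control and 1024, 996 and 725 CPM for LPS. Acta2 and Tagln, among others, were lowest there in both groups, but Actg2 was highest in control replicate 3 and Des in LPS replicate 3.

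Without both libraries numbered 3, a choice made because earlier results had shown them apart, 6 of the 9 genes were called in a fit of 2 against 2 libraries. Cyr61 (log2 fold change 0.45, SE 0.06, adjusted p = 0.00135), Ctgf (0.44, SE 0.08, adjusted p = 0.0067), Ankrd1 (0.57, SE 0.08, adjusted p = 0.00227) and Amotl2 (0.64, SE 0.05, adjusted p = 0.000190) were higher in LPS. Nov (-1.67, SE 0.07, adjusted p = 1.25e-05) and Wisp1 (-0.32, SE 0.06, adjusted p = 0.00458) were lower. Wisp2 (-0.15, adjusted p = 0.614), Yap1 (0.15, adjusted p = 0.102) and Wwtr1 (0.03, adjusted p = 0.724) were not called. The same fit called 22.6% of all genes higher and 20.4% lower, so calls were frequent throughout. Its SEs and p-values do not carry the spread of the libraries left out: for Amotl2 the SE was 0.44 with all 6 libraries. Over the 15 alternatives the adjusted p ran from 0.00135 to 0.824 for Cyr61, 0.0067 to 0.674 for Ctgf, 0.00227 to 0.990 for Ankrd1, 0.000190 to 0.765 for Amotl2 and 0.00458 to 0.703 for Wisp1. It ran from 0.515 to 0.959 for Wisp2, 0.102 to 0.998 for Yap1 and 0.473 to 0.985 for Wwtr1. In replicate 3 the log2 ratio of LPS to control was -0.07 for Cyr61, -0.60 for Ankrd1 and 0.15 for Ctgf. Whether the effect of LPS differed between replicate 3 and the others was not tested, since a single library stands on each side.

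**Figure D3:**
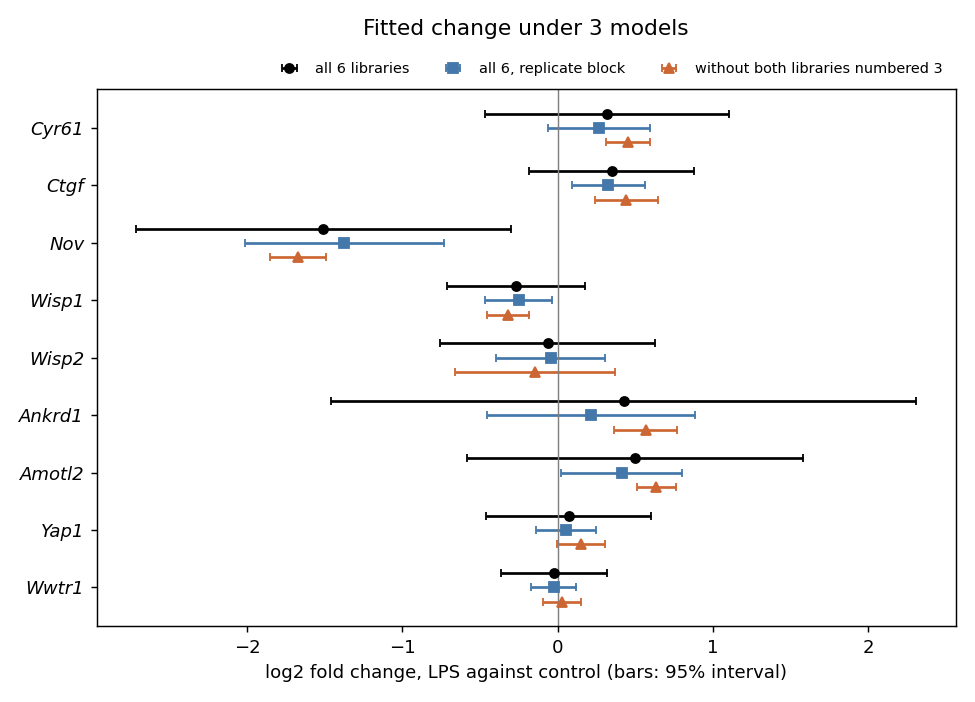
Log2 fold change of LPS against control for the 9 genes (horizontal axis) with 95% intervals, fitted on all 6 libraries (black), with the replicate number as a block (blue) and without both libraries numbered 3 (orange). The interval of Ankrd1 is the widest with all 6 libraries, and Nov lies below 0 in 3 of 3 fits.

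Compared per kilobase of exon, which allows levels to be set between genes, the set spanned a wide range. Ctgf was the highest in control at 258 ± 36.4 CPM per kb, then Cyr61 at 121 ± 25.6, Wisp1 at 64.4 ± 13.5 and Wwtr1 at 38.8 ± 4.26. The ranges of these 4 did not overlap with those of their neighbours in this order. Below them Amotl2 stood at 22.1 ± 6.72, Yap1 at 17.6 ± 2.87, Nov at 12.5 ± 6.62, Ankrd1 at 9.64 ± 4.84 and Wisp2 at 7.56 ± 2.34 CPM per kb, and here each gene overlapped with the next. In LPS the top of the order was again Ctgf at 329 ± 82.8 and Cyr61 at 151 ± 54.9 CPM per kb. Nov, seventh in control, was the lowest of the 9 in LPS at 4.39 ± 1.11 CPM per kb, a range that overlapped with that of Ankrd1 but not with that of Wisp2.

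Across the 6 libraries, Cyr61 and Amotl2 followed each other most closely of the pairs in the set, with a Pearson r of log2 CPM of 0.998. Ankrd1 and Yap1 had an r of 0.992, and Cyr61 and Ctgf of 0.925. Nov followed Wisp1 (r = 0.951). Nov and Ctgf had an r of 0.033 over the 6 libraries, between groups whose means differed in opposite directions, and of 0.753 as deviations from the group means. Among 9957 genes with a mean of at least 10 CPM, Syn2 (0.999), Twist1 (0.999) and Amotl2 (0.998) were most like Cyr61. Ddb1, Arhgap35 and Bmp6 were most like Ankrd1, with r of 0.997 to 0.999. These values describe 6 points that share the 2 low libraries numbered 3. Of the 9957 genes, 4.78% reached an r above 0.9 with Cyr61, 3.97% with Ctgf and 4.65% with Ankrd1.

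The partners of YAP and TAZ on DNA were measured as a list of 8 TEAD and VGLL genes, of which 6 were tested. None was called in either direction, with a median log2 fold change of -0.24 against -0.02 over all genes. Tead1, the highest of them in CPM, measured 296, 303 and 215 CPM in control and 244, 240 and 162 CPM in LPS (log2 fold change -0.33, SE 0.21, adjusted p = 0.337). Vgll3, a cofactor that binds TEAD factors, measured 115, 106 and 55.2 CPM in control and 168, 160 and 51.1 CPM in LPS (log2 fold change 0.46, SE 0.50, adjusted p = 0.581), with its lowest value in LPS replicate 3, as for Cyr61 and Ankrd1. The fit with a replicate block called 0 higher and 2 lower, Tead1 (adjusted p = 0.018) and Vgll4 (adjusted p = 0.025), against 15.4% and 14.9% of all genes.

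Of 23 genes of the Hippo cascade and other YAP regulators, 2 were higher in LPS and 2 lower, with a median log2 fold change of -0.15. These are 8.70% of the list in each direction, near the 9.09% and 6.71% of all genes. Sav1, the scaffold of the Hippo kinases, rose from 77.3 ± 1.55 to 120 ± 6.32 CPM (log2 fold change 0.63, SE 0.07, adjusted p = 0.00448) and stayed called when each library was left out. Lats1, a kinase that phosphorylates YAP, rose from 74.1 ± 3.95 to 90.6 ± 3.67 CPM (0.29, SE 0.07, adjusted p = 0.0483). Amot, an angiomotin that binds YAP, fell from 53.7 ± 16.6 to 20.8 ± 5.47 CPM (-1.37, SE 0.31, adjusted p = 0.0371). Wtip, a LIM protein that binds LATS kinases, fell from 27.97 ± 0.294 to 22.3 ± 1.30 CPM (-0.33, SE 0.08, adjusted p = 0.0481). Lats1 lost its call when any library but control replicate 3 was left out (adjusted p up to 0.185), and Wtip when any of the 6 was (up to 0.179). Amot lost its call without replicate 1 or 2 of either group (adjusted p up to 0.138). Map4k4 and Mob1a, the highest of the others in CPM, measured 391 ± 18.1 and 252 ± 29.9 CPM in control against 548 ± 108 and 273 ± 56.1 CPM in LPS, without a call. The replicate block gave 2 genes higher and 9 lower, against 15.4% and 14.9% of all genes.

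Of 18 other genes known as YAP/TAZ targets, 1 was higher in LPS and 3 were lower, with a median log2 fold change of -0.23. The calls were 5.56% and 16.7% of the list, against 9.09% and 6.71% of all genes. F3, tissue factor, measured 115, 111 and 112 CPM in control and 62.9, 66.9 and 52.6 CPM in LPS (-0.89, SE 0.10, adjusted p = 0.00534), a fall that held when each library was left out. Ccdc80, a matrix protein, fell from 487 ± 96.9 to 191 ± 29.6 CPM (-1.35, SE 0.19, adjusted p = 0.0105, and 0.0593 without control replicate 2). Tgfb2 fell from 24.8 ± 2.81 to 17.1 ± 1.10 CPM (-0.53, SE 0.12, adjusted p = 0.0341), and Foxf2, a transcription factor of gut mesenchyme, rose from 8.44 ± 1.08 to 15.2 ± 2.05 CPM (0.85, SE 0.16, adjusted p = 0.0217). Both lost their call without replicate 1 or 2 of either group, with adjusted p of up to 0.130 for Tgfb2 and 0.0980 for Foxf2. Igfbp3 and Axl were the highest of the others in CPM. Igfbp3 measured 1312 ± 499 CPM without and 1212 ± 361 CPM with LPS, and Axl 531 ± 99.7 CPM without and 858 ± 214 CPM with LPS. Axl, a receptor tyrosine kinase, missed the threshold at an adjusted p of 0.106 and passed it with the replicate block (log2 fold change 0.68, adjusted p = 0.00532). The block gave 2 genes of this list higher and 8 lower, against 15.4% and 14.9% of all genes.

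Among 11 genes for CCN receptors, 2 were higher in LPS and 1 lower, with a median log2 fold change of 0.18. The calls were 18.2% and 9.09% of the list, against 9.09% and 6.71% of all genes. Sdc4, a heparan sulfate proteoglycan, measured 78.5, 82.7 and 97.1 CPM in control and 263, 283 and 173 CPM in LPS (1.48, SE 0.21, adjusted p = 0.00991). Itga5, the α5 integrin chain, rose from 347 ± 52.5 to 726 ± 74.7 CPM (1.06, SE 0.14, adjusted p = 0.00861). Lrp6, a WNT coreceptor that CTGF can bind, fell from 139 ± 5.08 to 103 ± 9.96 CPM (-0.43, SE 0.09, adjusted p = 0.0304). Itga5 lost its call without control replicate 2 (adjusted p = 0.0593), Sdc4 without control replicate 1 or 2 (up to 0.0653), and Lrp6 when any library but LPS replicate 3 was left out (up to 0.126). Itgb1 and Lrp1, the highest receptor genes in CPM, measured 2011 ± 151 and 1801 ± 327 CPM in control and 1982 ± 290 and 1197 ± 44.0 CPM in LPS, without a call. With the replicate block Lrp1 was called lower (-0.57, adjusted p = 0.0314). Itgam and Itgb2 encode an integrin of myeloid cells that binds CCN1. Itgam measured 82.7, 135 and 469 CPM in control and 115, 154 and 1053 CPM in LPS, so that, unlike Cyr61, it was highest in replicate 3 of both groups. Itgb2, highest there as well, measured 91.5, 117 and 232 CPM in control and 112, 163 and 365 CPM in LPS, without a call (0.54, SE 0.54, adjusted p = 0.545), and was called higher with the replicate block (0.48, adjusted p = 0.0211). The block gave 3 receptor genes higher and 3 lower, against 15.4% and 14.9% of all genes.

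The list of 12 actin-linked MRTF-SRF targets, many of which also respond to actin tension, had 1 gene higher and 3 lower in LPS and a median log2 fold change of -0.20. The calls were 8.33% and 25% of the list, against 9.09% and 6.71% of all genes. Tpm2, a tropomyosin, fell from 224 ± 22.1 to 99.3 ± 17.2 CPM (-1.17, SE 0.15, adjusted p = 0.00826, and 0.0543 without control replicate 2). Vcl, which encodes vinculin, fell from 473 ± 91.9 to 264 ± 27.7 CPM (-0.84, SE 0.17, adjusted p = 0.0278), and Tpm1 from 1113 ± 131 to 675 ± 131 CPM (-0.72, SE 0.18, adjusted p = 0.0453). Vcl lost its call without replicate 1 or 2 of either group (up to 0.118), and Tpm1 when any library but LPS replicate 3 was left out (up to 0.164). The gene higher in LPS was Itga5, described above. Actb and Flna, the highest of the others in CPM, measured 2384 ± 370 and 1877 ± 103 CPM in control and 2888 ± 1375 and 1598 ± 44.1 CPM in LPS, without a call. With the replicate block Flna was called lower (-0.23, adjusted p = 0.0457). The block gave 2 higher and 6 lower, against 15.4% and 14.9% of all genes. Beside this list, 7 of 8 smooth muscle markers, several of them SRF targets, were called lower in LPS, against 6.71% of all genes. The replicate block called 8 of 8 lower, against 14.9% of all genes. Their summed levels were 2484 to 2735 CPM in control and 725 to 1024 CPM in LPS. The means of Nov and Wisp1 were lower in LPS too, and the part of smooth muscle cells in that was not tested.

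**Figure D4:**
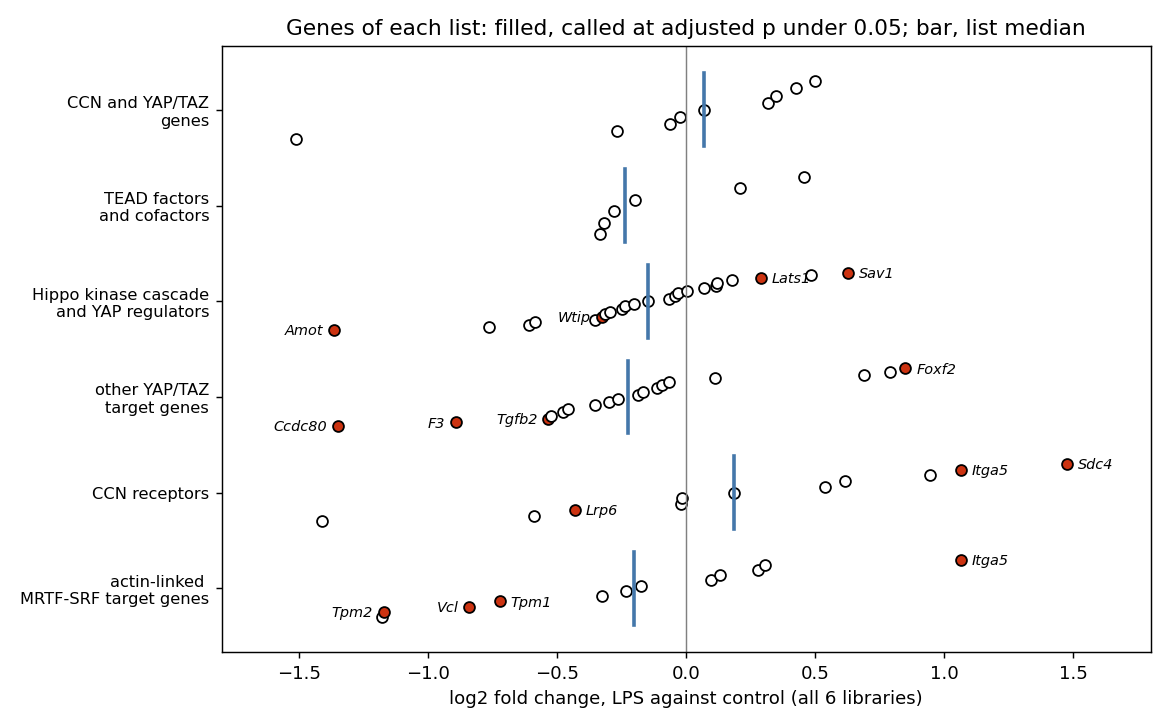
Log2 fold change of LPS against control (horizontal axis, all 6 libraries) for the 9 genes of the set and the tested genes of 5 related lists, 1 point per gene, with called genes filled and named and the list median as a vertical bar. No point of the set or of the TEAD list is filled, and the list medians lie between -0.24 and 0.18.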

How the data were processed

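Poly-A RNA of 3 control and 3 LPS libraries was prepared with a stranded mRNA kit and sequenced on a NextSeq500. Per the labels and series text, the authors trimmed and filtered reads (cutadapt 1.15), removed contaminants (Bowtie2 2.3.3.1), aligned to GRCm38 (STAR 2.5.2b, SAMtools 1.5) and deposited raw counts per gene for each library; featureCounts 1.5.3 stands in the submitters' processing notes. The strand setting and the handling of reads with several alignments are not given in the sources used here, so genes with antisense overlap are uncertain. PCR copies cannot be recognized, so floors cover counting error only.

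Counts were filtered (filterByExpr, minimum count 10, minimum total 15), scaled by TMM and tested with the edgeR 4.0.16 quasi-likelihood F-test (R 4.3.3), two-sided, with group as the only term; p-values were adjusted by Benjamini-Hochberg across the 15226 genes tested. The test was checked on simulated counts. CPM use TMM-corrected library sizes, and CPM per kb the merged exons of GENCODE M21, which held 98.7% of identifiers. The SE is the absolute log2 fold change divided by the square root of F. Alternatives were other scalings and filters, DESeq2 1.42.0, limma-voom 3.58.1, the replicate block and leaving out libraries.

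Deviations from the group means correlated between libraries of the same number (r = 0.513, 0.334 and 0.613 over 15226 genes), so by the rule used (every r over 0.1) the numbers were taken to pair the libraries. Control 1 with LPS 2 (0.419) and control 2 with LPS 1 (0.323) correlated about as well, so the data set number 3 apart but do not tell 1 from 2, and the labels do not say what the numbers mark. The members and lists were chosen with earlier results of these data known. Named were all 9 members and Wisp3, of each list up to 4 called genes by p and up to 2 others by level, and the 3 genes most like Cyr61 and Ankrd1 (those most like Ctgf, and the summed glial markers, are not reported here); Vgll3, Vgll4, Itgam and Itgb2 were added after their values were seen.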

Additional observations from a re-analysis of the deposited data

How the results depend on the processing

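The counts of called members changed as follows. DESeq2 and the replicate block each called 1 member lower in LPS, and leaving out single libraries gave 0 to 1 lower and 0 higher. Over all genes, single libraries left out gave 2.44% to 12.6% higher and 0.720% to 9.13% lower, and DESeq2 13.7% and 11.0%. Leaving out both libraries numbered 3 gave 4 higher and 2 lower. The log2 fold change of Yap1 was -0.030 with upper-quartile factors, -0.084 when scaled by library size alone and -0.059 to 0.25 without single libraries. That of Wisp2 was -0.28 to 0.19 and that of Wwtr1 -0.095 to 0.088 without single libraries, and Wwtr1 was 0.025 without both libraries numbered 3. Scaling by upper quartile or by library size moved the median of all genes from -0.02 to -0.12 and -0.18; the calls split 1384 higher to 1022 lower with TMM, 1050 to 1589 and 986 to 2054 under these.

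In the lists, calls higher/lower were as follows. Over all genes they were 9.44% and 6.48% with RLE factors, 6.48% and 13.5% with library size alone, 6.90% and 10.4% with upper-quartile factors and 4.48% and 3.28% with no filter. For TEAD genes, lower calls were 1 with upper-quartile factors or DESeq2, 2 with library size alone or the replicate block, and 3 without both libraries numbered 3, which gave 1 higher; single libraries left out gave 0. For the Hippo list, higher calls were 1 with upper-quartile factors, library size alone, no filter or limma-voom and 3 with DESeq2 or without both libraries numbered 3, and lower calls were 1 with RLE factors or no filter, 4 with library size alone or upper-quartile factors, 9 with the block and 10 without both libraries numbered 3; single libraries left out gave 1 to 2 higher and 0 to 3 lower. For other YAP/TAZ targets, higher calls were 2 with DESeq2, the block or without both libraries numbered 3, and lower calls were 5 with library size alone or DESeq2 and 8 with the block or without both; single libraries left out gave 0 to 2 higher and 1 to 4 lower. For receptors, lower calls were 2 with upper-quartile factors and 3 with DESeq2, library size alone, the block or without both; single libraries left out gave 0 to 3 higher and 0 to 1 lower. For MRTF-SRF targets, lower calls were 5 with DESeq2 and 6 with the block or without both, and higher calls 2 and 4 with the latter settings; single libraries left out gave 0 to 1 higher and 0 to 3 lower. Without exon length, Wisp1 ranked 2, Cyr61 3, Yap1 5 and Amotl2 6 in control. The replicate block changed no other call among the members than that of Nov. A library left out of a group leaves 2 libraries there, and the cause of these shifts was not tested.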
